A study of Homo sapiens with 19 samples.

Results

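The genes described are the subunits, assembly chaperones and activators of the proteasome (symbols that begin with PSMA to PSMG and a digit) and the ubiquitin-specific proteases (symbols that begin with USP and a digit), as they appear in the rMATS skipped exon (SE) tables. Of the 11701 genes with an SE event, 85 matched these names, 43 PSM genes and 42 USP genes. A further 5 antisense or pseudogene symbols were left out, and USP6NL matches by name only, since it is no deubiquitinase. The 85 genes carried 1029 of the 100238 annotated splicing events, of which 748 were SE, 223 mutually exclusive exons (MXE), 19 retained introns (RI), 15 alternative 5′ splice sites (A5SS) and 24 alternative 3′ splice sites (A3SS). A level across the 4 groups could be set for 80 of the 85, because only these had an SE event in every SE table. Of those, 79 passed the filter on low reads. PSMB10, PSMC4, USP11, USP18 and USP35 had no such level, USP42 was below the filter, and PSMB8 and USP9X were not analysed here.

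The proteasome is the protease that degrades proteins tagged with ubiquitin. Its 20S core holds the catalytic sites inside stacked rings of alpha and beta subunits, and the 19S cap binds ubiquitin chains, unfolds the substrate with a ring of ATPases and feeds it into the core. USP enzymes are cysteine proteases that remove or trim ubiquitin, and individual members act on chromatin, endosomes, mitochondria, DNA repair complexes and signalling receptors.

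HMLE/Twist-ER is a line of human mammary epithelial cells immortalized with Tert, in which a Twist fusion to the estrogen receptor lets tamoxifen trigger an epithelial-mesenchymal transition (EMT). Untreated cells were the epithelial state (EPI), and cells kept in 20 nM tamoxifen until their morphology was mesenchymal were the mesenchymal state (MES). In each state the cells stably expressed a non-specific shRNA (control) or an shRNA against AKAP8 (shAKAP8), an RNA-binding protein, and poly(A) RNA was sequenced from 3 EPI control, 3 EPI shAKAP8, 3 MES control and 2 MES shAKAP8 cultures. AKAP8 eCLIP, which maps the RNA crosslinked to the protein, was made in untransduced cells of both states with 2 IP and 2 input libraries each. All libraries come from a single line, so that the EMT contrast also contains the tamoxifen treatment, and the labels do not say which AKAP8 shRNA was used.

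The SE junction reads of a library summed to between 31258177 and 40852217 per table. Libraries were identified by their place in the list of their group, because the tables number none, and the third MES control, listed only in the tables that compare the states, enters the gene levels but not the MES knockdown events. The gene level used below is the sum of the inclusion and skipping junction reads over the SE events of a gene, scaled for depth. Log2FC values are on the log2(scaled reads + 1) scale. AKAP8 itself had 244, 311 and 246 scaled reads in the EPI controls, 121, 99.1 and 125 in EPI shAKAP8, 383, 196 and 248 in the MES controls, and 109 and 122 in MES shAKAP8, with no overlap between knockdown and control in either state and a log2FC of −1.20 in both (limma adjusted p = 0.0664 in EPI and 0.0322 in MES). All 5 epithelial markers with a level were lower in MES controls and all 6 mesenchymal markers were higher (limma, adjusted p under 0.05). EPI shAKAP8 2 stood apart: its gene values correlated with those of its group at 0.959 to 0.961, against 0.979 to 0.990 for the other pairs of libraries within a group, and counts that change without it are given with and without it.

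Most of the annotated exons of these genes were included almost always. Over the EMT tables, 485 of the 548 tested SE events (88.5%) had a mean inclusion (percent spliced in, PSI) of at least 95%, against 79.4% of all SE events. Among PSM genes this held for 206 of 217 events (94.9%) and among USP genes for 279 of 331 (84.3%). A PSI between 10% and 90% was measured at 27 events in 18 genes, 2 of them in PSM genes and 25 in USP genes. The PSM events were a 159-base exon of PSMD6, a subunit of the 19S lid, with a PSI of 15.1% ± 4.09 in EPI controls and 9.30% ± 3.31 in MES controls, and a 117-base exon of PSMG4, an assembly chaperone, with 15.7% ± 1.88 and 22.0% ± 7.13 (SD, n = 3 each). Both were singled out after their values were seen, and neither passed the test. Changes in mean PSI of at least 10 percentage points, whatever their p, were found at 4 of 734 member events after knockdown in EPI (0.545%, all events 2.87%), at 16 of 639 after knockdown in MES (2.50%, all events 4.41%) and at 21 of 747 between the states (2.81%, all events 6.01%). In the same order, these were 0 of 296, 1 of 269 and 2 of 296 PSM events. Among USP events they were 4 of 438, 15 of 370 and 19 of 451. The same event can count in more than 1 comparison.

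Between EPI and MES controls, 4 member events passed the thresholds, in USP21, USP8, USP53 and USP34. Events were tested on their inclusion and skipping reads with a quasi-binomial test moderated with limma, and were called at an adjusted p under 0.05 with a change of at least 10 points. The 4 calls are 0.535% of the 747 member events, against 1.59% of the 67451 events tested. With that size of change and an unadjusted p under 0.05 there were 12 member events, 1.61% of those tested, against 3.79% of all. The calls depend on single libraries. Without MES control 1 none of the 4 was kept and only an MXE event of PSMF1 was called. Without EPI control 1 or MES control 2 there were 2 calls, both among the 4. Without EPI control 2 there were also 2, of which 1 was among the 4 and the other lay in USP54. Without EPI control 3 or MES control 3 there were 3, of which 2 were among the 4. The new call was in PSMF1 without EPI control 3 and in USP19 without MES control 3. Limma on logit PSI called 0.

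The called exons of USP8, USP34 and USP53 and the exons of USP28 are shown with their surroundings because the later values refer to them. Exons stand in capitals, with 10 intron bases on each side in lower case, all in GRCh37 and in the direction of transcription. All of those shown lie within coding sequence. The 2 exons of USP34 and the 2 of USP53 form the MXE pairs, and the 2 exons of USP28 both differed after knockdown in MES at an unadjusted p under 0.05.
USP8, chr15:50776472-50776558, + strand, 87 bases: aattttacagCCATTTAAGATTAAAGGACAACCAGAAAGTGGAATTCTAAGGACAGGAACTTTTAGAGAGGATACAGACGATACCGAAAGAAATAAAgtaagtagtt
USP34, chr2:61431391-61431515, − strand, 125 bases: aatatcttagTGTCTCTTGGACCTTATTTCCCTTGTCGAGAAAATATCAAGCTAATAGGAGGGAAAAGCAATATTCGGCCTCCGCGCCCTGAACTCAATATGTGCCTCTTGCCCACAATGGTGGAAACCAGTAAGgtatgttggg
USP34, chr2:61420036-61420115, − strand, 80 bases: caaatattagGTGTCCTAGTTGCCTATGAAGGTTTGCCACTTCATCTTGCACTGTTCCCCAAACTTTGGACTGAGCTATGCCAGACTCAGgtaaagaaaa
USP53, chr4:120181662-120181808, + strand, 147 bases: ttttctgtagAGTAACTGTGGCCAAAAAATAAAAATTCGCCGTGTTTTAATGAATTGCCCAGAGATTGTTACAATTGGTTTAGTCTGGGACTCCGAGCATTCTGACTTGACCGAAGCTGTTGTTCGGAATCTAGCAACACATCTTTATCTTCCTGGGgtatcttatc
USP53, chr4:120182870-120183019, + strand, 150 bases: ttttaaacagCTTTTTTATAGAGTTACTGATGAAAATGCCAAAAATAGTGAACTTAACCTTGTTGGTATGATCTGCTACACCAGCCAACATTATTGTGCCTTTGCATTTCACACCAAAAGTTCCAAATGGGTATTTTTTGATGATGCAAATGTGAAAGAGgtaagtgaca
USP28, chr11:113724980-113725057, − strand, 78 bases: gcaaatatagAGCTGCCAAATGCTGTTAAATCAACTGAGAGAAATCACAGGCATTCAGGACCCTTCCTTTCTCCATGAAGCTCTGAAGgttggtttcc
USP28, chr11:113723223-113723355, − strand, 133 bases: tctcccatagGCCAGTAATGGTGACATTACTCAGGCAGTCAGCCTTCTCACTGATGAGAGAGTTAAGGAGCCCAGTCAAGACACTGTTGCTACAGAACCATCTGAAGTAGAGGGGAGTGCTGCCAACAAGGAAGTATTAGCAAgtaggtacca

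USP21, a deubiquitinase of histone H2A, showed the largest change among the 4 called events. Its 141-base exon at chr1:161130156-161130296 on the + strand lies in the 5′ UTR. The PSI was 64.3%, 68.3% and 71.1% in the EPI controls and 19.6%, 44.1% and 46.7% in the MES controls. Each MES control was below each EPI control, and MES control 1 was the lowest library of all. The mean fell by 31.1 points (limma-moderated quasi-binomial test, adjusted p = 0.00833). Junction reads a library ran from 61 to 106 in these controls and from 61 to 126 over all groups. With AKAP8 shRNA the PSI was 45.3%, 69.1% and 66.0% in EPI and 33.9% and 36.8% in MES, which overlapped the controls in both states. A version of the exon that starts 5′ of it and is 178 bases long uses the same skipping reads, and changed by −25.1 points (adjusted p = 0.108, limma-moderated quasi-binomial test).

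USP8 deubiquitinates receptors at the endosome and is known for its part in the sorting of EGFR. Its 87-base exon, a multiple of 3 in length, had a PSI of 38.7%, 43.4% and 45.1% in the EPI controls and 65.4%, 58.4% and 51.1% in the MES controls. All MES controls were above all EPI controls, with a mean difference of 15.9 points (limma-moderated quasi-binomial test, adjusted p = 0.0416). Reads a library ran from 197 to 372 in these controls and from 171 to 372 over all groups. In EPI shAKAP8 the values were 57.3%, 36.7% and 49.9%, so that these 3 libraries spanned the EPI controls. They were 57.7% and 50.7% in MES shAKAP8, below both MES controls of that table. Neither knockdown difference, 5.58 points in EPI (adjusted p = 0.705) and −7.68 points in MES (adjusted p = 0.763), passed the limma-moderated quasi-binomial test. The first was 0.94 points without EPI shAKAP8 1 and 11.2 without EPI shAKAP8 2, and the second −4.16 without MES control 1 and −11.2 without MES control 2.

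USP53, a family member found at tight junctions, differed in an MXE pair. The share of the 147-base exon was 44.3%, 42.4% and 42.6% in the EPI controls and 67.5%, 55.1% and 61.4% in the MES controls. Again the states did not overlap, and the difference was 18.3 points (limma-moderated quasi-binomial test, adjusted p = 0.00911). The EPI shAKAP8 values of 50%, 35.0% and 43.6% lay around the controls, and the event is not in the MES knockdown table. As SE events, both exons of the pair were included at 91.8% or more in every library that lists them. In an MXE count, a read that joins an exon to the nearest shared flank counts for that exon also when the other exon is present, and what share of the difference this makes was not tested. The reads behind the MES values were few, 49 at the least in a library, and the level of USP53 was also lower in MES.

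USP34, which acts on axin in Wnt signalling, also changed in an MXE pair. The share of the 125-base exon was 67.7%, 63.6% and 64.0% in the EPI controls, 52.7%, 53.2% and 55.7% in the MES controls, and 67.8% and 61.9% in MES shAKAP8. The MES controls were the low group, and the MES shAKAP8 libraries lay among or near the EPI controls. The state difference was −11.2 points (limma-moderated quasi-binomial test, adjusted p = 0.0374). The knockdown difference in MES was 11.9 points (p = 0.0164, adjusted p = 0.999, limma-moderated quasi-binomial test with 2 libraries a group) and did not pass. As SE events, the 80-base exon was included at 98.0% or more in the controls of both states and the 125-base exon, in the event with the lower values, at 94.2%, 71.7% and 91.8% in the MES controls. The pair is not in the EPI knockdown table.

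**Figure D1:**
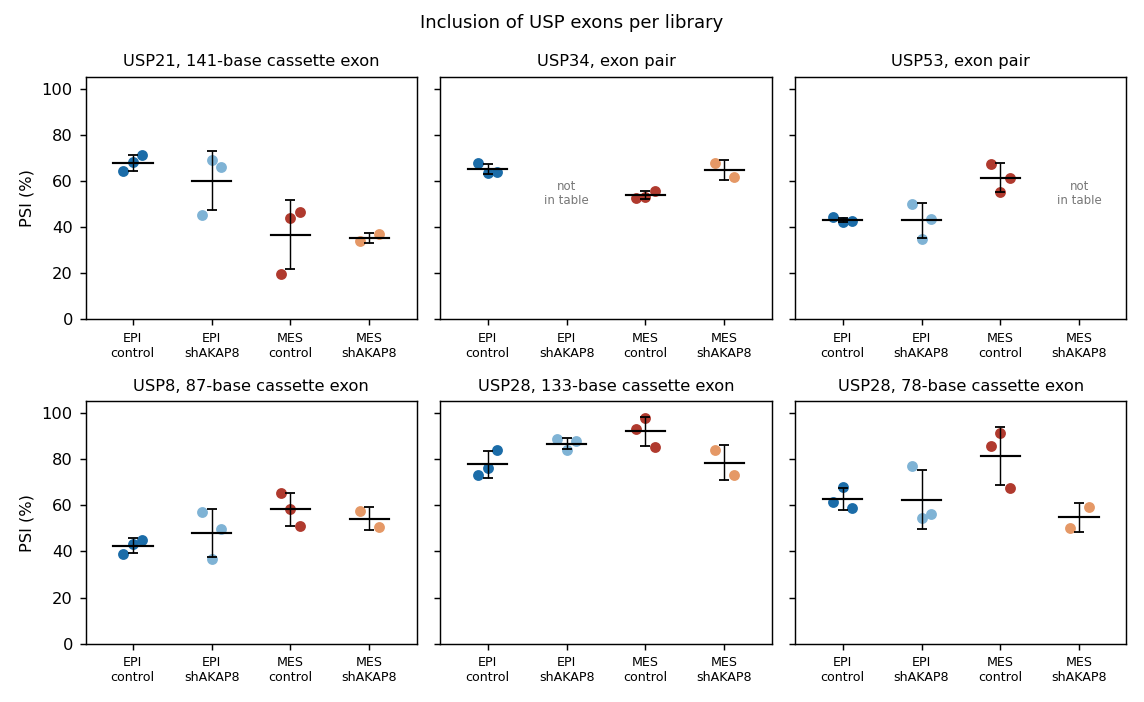
Inclusion (PSI, %, y axis) of 4 USP events called between the states and of 2 exons of USP28, by library (points), with the mean (line) and SD (bars) for EPI control, EPI shAKAP8, MES control and MES shAKAP8. For an exon pair PSI is the share of the exon counted as included. USP21 lies at 64.3% or more in the EPI controls and at 46.7% or less in the MES controls, and the USP28 exons are lower in both MES shAKAP8 libraries than in MES controls 1 and 2.

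No member event was called after AKAP8 knockdown in either state. In EPI the count was 0 of 734 (background 0.0492% of 65008 events), with 1 event past the size of change at an unadjusted p under 0.05 (background 0.998%). That event is the MXE pair of USP28, whose share of the 78-base exon changed by −11.6 points (p = 0.0330, adjusted p = 0.684, limma-moderated quasi-binomial test). In MES it was 0 of 639 (background 0.054% of 59288), with 4 past that size at an unadjusted p under 0.05 (background 1.28%), in USP19, USP34 and, for 2 exons, USP28. Limma on logit PSI called 0 member events in both. Leaving out a library gave calls in EPI for PSMF1 alone, without EPI control 3 or without EPI shAKAP8 1, and in MES for PSME3 and USP39, without MES shAKAP8 1. The comparisons with the EPI or MES controls share those control libraries with the comparison of the states, and their values are therefore only set side by side.

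USP28, which stabilizes MYC and takes part in the DNA damage response, had 2 exons among those named. The 133-base exon had a PSI of 73.0%, 76.1% and 83.9% in the EPI controls, 88.6%, 83.9% and 87.8% in EPI shAKAP8, 92.9%, 98.0% and 85.4% in the MES controls and 83.9% and 73.0% in MES shAKAP8. Each MES control was above each EPI control, while the MES shAKAP8 libraries lay within the range of the EPI controls. The differences were 9.07 points after knockdown in EPI (p = 0.0928), 14.4 points between the states (p = 0.0163, adjusted p = 0.288) and −17.0 points after knockdown in MES (p = 0.0110, adjusted p = 0.763), all from the limma-moderated quasi-binomial test. The 78-base exon had 61.6%, 68.0% and 58.9% in the EPI controls, 77.1%, 54.3% and 56.1% in EPI shAKAP8, 85.5%, 91.4% and 67.3% in the MES controls and 50.3% and 59.3% in MES shAKAP8. Its largest difference, −33.7 points after knockdown in MES (p = 0.0334, adjusted p = 0.763, limma-moderated quasi-binomial test), rested on few reads, between 20 and 77 a library over the 4 groups. Both exons are skipped by the same junction, so that they share their skipping reads.

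USP54 and USP19 gave the other named exons with larger differences. For the 171-base exon of USP54 at chr10:75294358-75294528 on the − strand, PSI was 5.88%, 25.5% and 2.44% in the EPI controls, 34.3%, 17.2% and 27.0% in EPI shAKAP8, 57.1%, 24.5% and 34.5% in the MES controls, and 17.9% and 13.7% in MES shAKAP8. The libraries of a group differed widely and rested on 18 to 45 reads. The changes of 14.9 points in EPI (p = 0.0738), 27.4 points between the states (p = 0.00901, adjusted p = 0.206) and −25.0 points in MES (p = 0.0749) did not pass the limma-moderated quasi-binomial test. A 141-base exon of USP54 at chr10:75264608-75264748 changed by 13.4 points after knockdown in EPI (adjusted p = 0.705, limma-moderated quasi-binomial test), with overlapping groups. In USP19, a deubiquitinase with a form anchored in the endoplasmic reticulum, a 303-base exon at chr3:49154492-49154794 on the − strand had 87.0% and 81.2% in the 2 MES controls of the MES table and 98.4% and 100% in MES shAKAP8. That was 15.1 points (p = 0.000643, adjusted p = 0.343, limma-moderated quasi-binomial test), but MES control 3, which only the EMT table holds, had 98.0%. An 80-base exon of USP18, which removes ISG15, had 72.5% in MES control 1 and 100% in MES control 2 and in both MES shAKAP8 libraries (limma-moderated quasi-binomial test, adjusted p = 0.763).

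PSMF1, an inhibitor of the proteasome (PI31), was singled out after its values were seen, because its MXE pair passed the adjusted p but not the size of change. The share of the 153-base exon at chr20:1106141-1106293 was 50.3%, 48.0% and 42.6% in the EPI controls, 40.3%, 37.9% and 35.6% in EPI shAKAP8, and 42.3%, 36.3% and 36.0% in the MES controls. All EPI shAKAP8 and all MES control libraries were below all EPI controls. The difference was −8.77 points between the states (adjusted p = 0.00398) and −9.04 points after knockdown in EPI (p = 0.000162, adjusted p = 0.124, limma-moderated quasi-binomial test). As SE events, both exons of the pair were included at 98.8% or more in every library that lists them, as for USP53. The pair was not tested after knockdown in MES. At a cutoff of 5 points, PSMF1 and PSME3 would join the 4 called events, 6 in all.

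At the level of genes, 9 of the 79 members differed between EPI and MES controls. Higher in MES were PSMC3, PSMC5, PSMD1, USP13 and USP40, and lower were PSME4, USP31, USP43 and USP53 (limma, adjusted p under 0.05 over 9019 genes). These are 6.33% of the members higher and 5.06% lower, against 11.6% and 12.3% of all genes. Of the 9, 3 changed by more than 1 on the log2 scale, and the median size of the log2FC was 0.16 over the members and 0.35 over all genes. With libraries scaled by their totals, with which the median log2FC of all genes was −0.10 instead of 0.01, the split was 2 higher and 7 lower (745 and 1475 of all genes, against 1043 and 1112): PSMC5, PSMD1 and USP40 were no longer called and PSMA1, PSMB7 and PSMG4 were, all lower. The count was 5 without EPI control 1 (all genes 636 higher and 749 lower). It was also 5 without MES control 1 (all genes 647 and 761) or MES control 2 (606 and 748). Without EPI control 2 it was 6 (all genes 777 and 792). Without EPI shAKAP8 2 it was 13 (7 higher, 6 lower, background 16.5% and 16.6%). PSMD1, PSME4, USP13, USP43 and USP53 remained called whichever library was left out. With the best covered SE event of a gene in place of the sum, 8 members were called, since PSMD1, USP31 and USP40 were not and PSMA1 and PSMG4 were. In bulk RNA a change in the share of cells and a change in RNA per cell cannot be told apart.

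No gene of the 20S core was called. Of the 7 alpha ring genes and the 7 constitutive beta ring genes tested, 0 passed, with median log2FC of −0.05 and −0.07 and a range from −0.33 (PSMA1, adjusted p = 0.0655, limma; PSMB7 had the same rounded value) to 0.14. Over all members, 13 of 79 had an unadjusted limma p under 0.05 in this contrast, against 3274 of all 9019 genes. PSMB9, the inducible beta subunit of the immunoproteasome, had 284, 296 and 159.7 scaled reads in the EPI controls and 309, 311 and 179 in the MES controls, with a log2FC of 0.12 (SE 0.37). In both states the third control was the low library, and the groups overlapped.

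In the 19S cap, 2 of 5 ATPases and 1 of 11 non-ATPase subunits were higher in MES. PSMC3, an ATPase of the base (Rpt5), had 4491, 5378 and 4242 scaled reads in the EPI controls, 5881, 7246 and 5129 in EPI shAKAP8, 8059.7, 7728 and 6243 in the MES controls and 10648 and 8569.9 in MES shAKAP8. Every MES library lay above every EPI control, and the log2FC between controls was 0.64 (SE 0.17, limma adjusted p = 0.0152). PSMC5 (Rpt6) had 2534, 2938 and 2816 in the EPI controls and 3995, 4028 and 3299 in the MES controls, a log2FC of 0.45 (SE 0.14, adjusted p = 0.0384, limma). The other ATPases PSMC1, PSMC2 and PSMC6 did not pass, PSMC2 with 0.42 (limma adjusted p = 0.0667). PSMD1 (Rpn2), the large scaffold of the base, had 10435, 10074 and 9909 in the EPI controls and 15349.7, 15142 and 13634 in the MES controls, without overlap and with a log2FC of 0.53 (SE 0.13, adjusted p = 0.00972, limma). In MES shAKAP8 it had 10818 and 10675, within the range of the EPI shAKAP8 values of 10899, 8693 and 10638.

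Among the 5 activator and inhibitor genes, PSME4 was the one called. PSME4 (PA200) is a nuclear activator that caps the core without ubiquitin. It had 8439.7, 9308 and 12052 scaled reads in the EPI controls, 7243, 7500.0 and 9589 in EPI shAKAP8, 5310.2, 5532 and 6096 in the MES controls and 3639 and 3802 in MES shAKAP8. MES libraries were all below EPI libraries, and MES shAKAP8 was the lowest group. The log2FC between controls was −0.80 (SE 0.16, limma adjusted p = 0.00298). PSME1 and PSME2, the subunits of the PA28 activator, had 0.09 and 0.13 and did not pass. Of the 5 assembly chaperones 0 passed, the nearest being PSMG4 with −0.63 (SE 0.22, limma adjusted p = 0.0525).

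**Figure D2:**
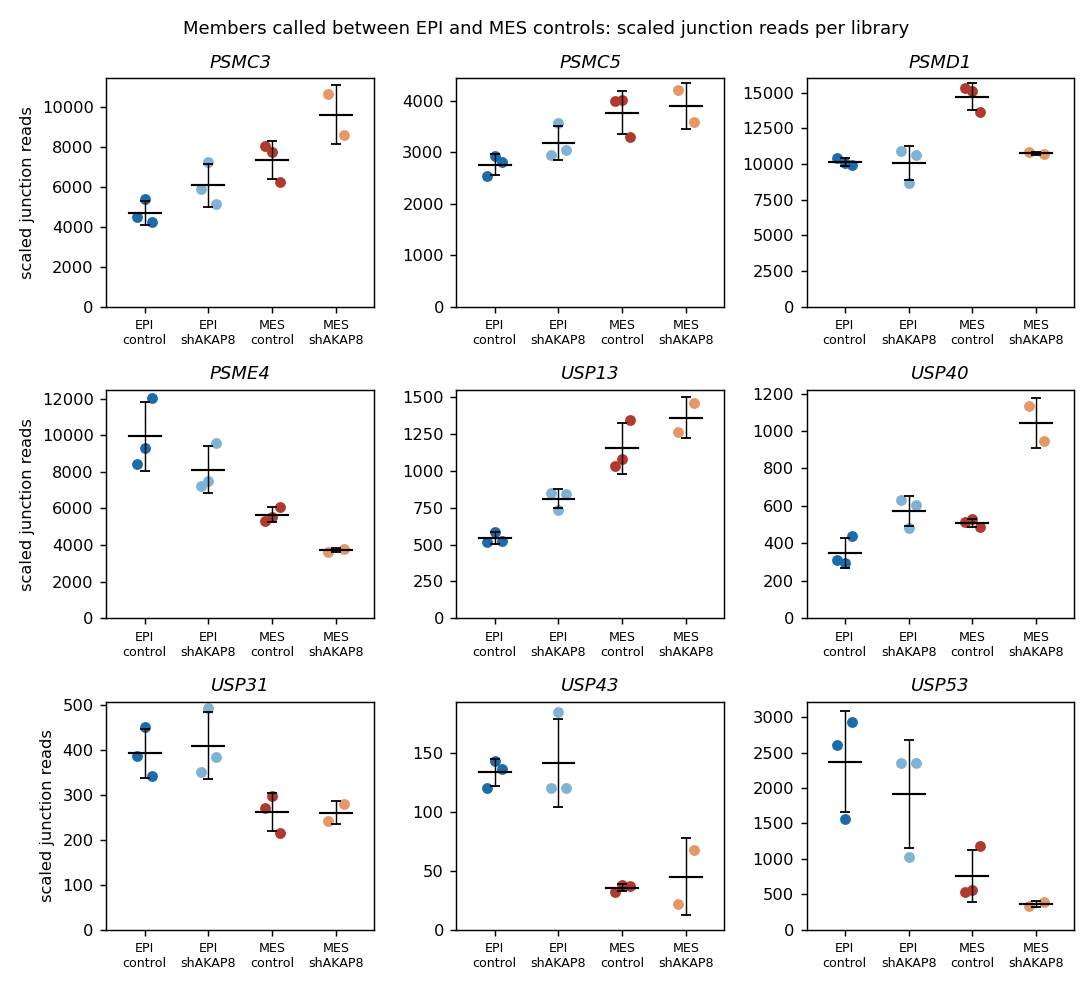
Scaled junction reads (y axis, from 0) of the 9 members called between the controls, by library (points) with mean (line) and SD (bars) for EPI control, EPI shAKAP8, MES control and MES shAKAP8. PSME4 and USP53 are lowest in MES shAKAP8, USP40 is highest there, and PSMD1 is high in the MES controls only.

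Of the 38 USP genes tested, 2 were higher and 3 lower in MES controls. USP13, a relative of USP5, had 516, 587 and 527 scaled reads in the EPI controls, 851, 737 and 845 in EPI shAKAP8, 1030.2, 1078 and 1348 in the MES controls and 1264 and 1459 in MES shAKAP8. The EPI shAKAP8 libraries lay between the EPI and MES controls without overlap. The log2FC was 1.08 between the controls (SE 0.16, adjusted p = 0.000295, limma). USP40 had 309, 295 and 439 in the EPI controls, 632, 484 and 606 in EPI shAKAP8, 513, 529.9 and 486 in the MES controls and 1135 and 947 in MES shAKAP8. EPI controls were the lowest group and MES shAKAP8 the highest, with 0.57 between controls (SE 0.19, limma adjusted p = 0.0422).

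The largest decreases were those of USP43 and USP53. USP43 had 121, 143 and 137 scaled reads in the EPI controls and 32.4, 37.9 and 37 in the MES controls, a log2FC of −1.87 (SE 0.35, adjusted p = 0.00203, limma). USP53 had 2606, 1568 and 2935 in the EPI controls, 2349, 1030.1 and 2353 in EPI shAKAP8, 537, 566 and 1178 in the MES controls and 331 and 398 in MES shAKAP8. Its MES controls were all below its EPI controls, and the log2FC was −1.69 (SE 0.36, limma adjusted p = 0.00430). For both genes the MES libraries stood clearly apart from the EPI controls. USP31 had 387, 450.0 and 341 in the EPI controls and 270.3, 298 and 215 in the MES controls (−0.59, SE 0.20, limma adjusted p = 0.0477), and was called without EPI shAKAP8 2 but not without any other single library.

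The USP genes that follow, taken by their roles, did not pass between the controls. USP14, which binds the 19S cap and trims chains there, had 3942, 4384 and 4379 scaled reads in the EPI controls and 5166, 5014 and 4549.6 in the MES controls (0.21). USP39, an inactive member of the spliceosome, had 0.09, and USP4 and USP15, which act in TGF-beta signalling, had −0.00 and 0.11. None of these groups of values led to a call, although those of USP14 did not overlap. USP7, the deubiquitinase of MDM2, had −0.10. Of the 7 USP genes of histones and chromatin, the 5 of DNA repair, the 5 of endosomes and membrane traffic and USP30 of mitochondria, 0 were called, and USP49 had the widest log2FC at 1.36 (SE 0.55, limma adjusted p = 0.0918) on 3.95 to 21.1 scaled reads in the controls.

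**Figure D3:**
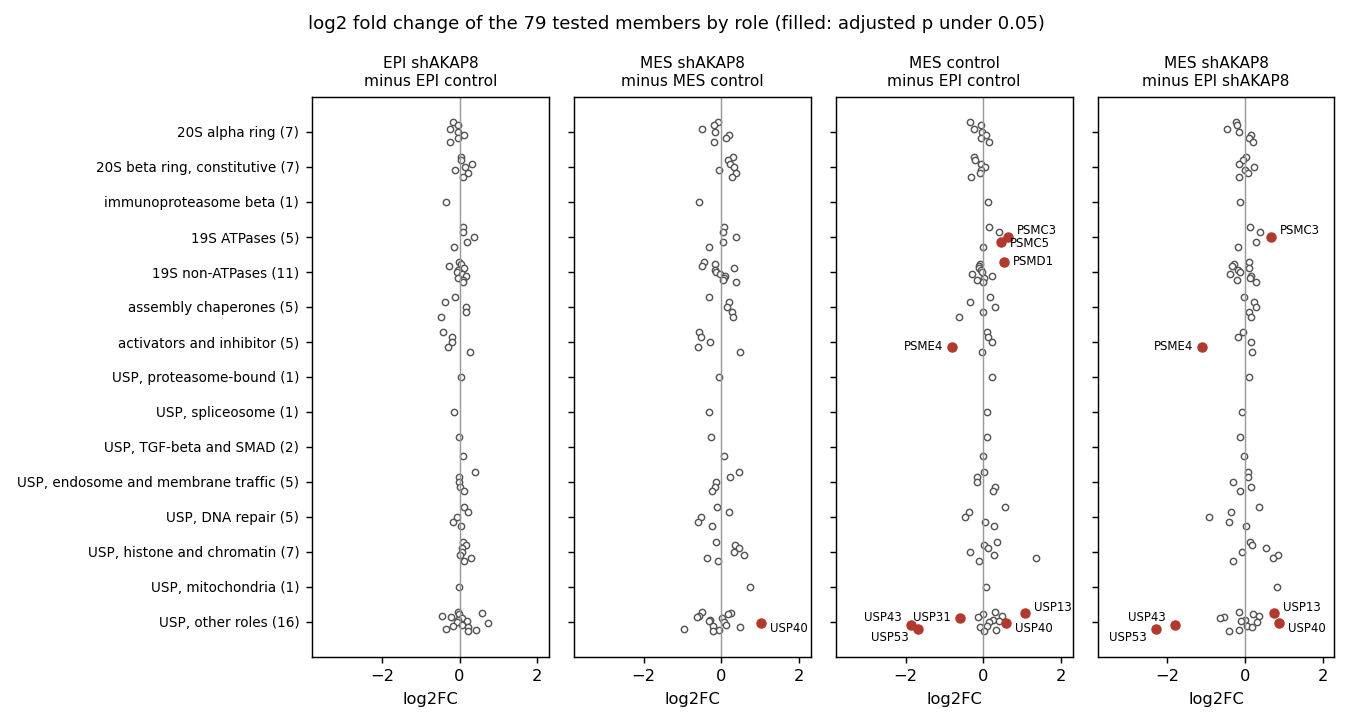
Log2FC (x axis, log2(scaled reads + 1) scale) of the 79 tested members by role (y axis, number of genes in brackets) in 4 contrasts. Filled points with names passed the limma test at an adjusted p under 0.05. No point is filled after knockdown in EPI, USP40 alone after knockdown in MES, 9 between the controls and 6 between the knockdown states.

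After AKAP8 knockdown in EPI, 0 of 79 members were called by limma, with a background of 0.0887% higher and 0.166% lower. The unadjusted limma p was under 0.05 for 4 of the 79 members, against 891 of all 9019 genes. These members were USP40 (0.74), USP13 (0.58), USP10 (0.41) and PSMG4 (−0.49). For USP40, USP13 and USP10 each EPI shAKAP8 library was above each EPI control, and the limma adjusted p values were 0.147, 0.177 and 0.233. USP10, which deubiquitinates p53, had 3213, 3272 and 2957 scaled reads in the EPI controls and 4239.5, 4159 and 4138 in EPI shAKAP8. The count was also 0 without EPI shAKAP8 2.

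After knockdown in MES, USP40 was called and no other member. Its log2FC was 1.02 (SE 0.21, limma adjusted p = 0.0193), and both MES shAKAP8 libraries, at 1135 and 947, were above the 3 MES controls. This is 1.27% of the members, against 2.06% of all genes higher and 2.1% lower. USP40 was not called with library totals, with which the median log2FC of all genes was −0.14 instead of −0.01, or without any single MES library. The unadjusted limma p was under 0.05 for 13 of the 79 members, against 1965 of all 9019 genes. Without EPI shAKAP8 2, which enters this contrast only through the shared spread, 11 members were called, 4 higher (USP40, PSMF1, USP10 and USP5) and 7 lower (PSMA3, PSMD1, PSMD12, PSME1, PSME2, PSME4 and USP25), against 6.86% of all genes higher and 7.09% lower.

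The proteasome activators PSME1, PSME2 and PSME4 had lower values in MES shAKAP8 that did not pass the test over all libraries. PSME4 had a log2FC of −0.60 (SE 0.18, limma adjusted p = 0.0787), PSME1 −0.59 (SE 0.27, adjusted p = 0.219) and PSME2 −0.52 (SE 0.21, adjusted p = 0.177). PSME1 had 3953, 3291 and 3419 scaled reads in the MES controls and 2512 and 2218 in MES shAKAP8, and in EPI 3521, 3969.9 and 2612 in controls against 2013, 3827 and 1966 after knockdown. PSME2 had 8805, 7459.6 and 6858 in the MES controls and 5824 and 4895 in MES shAKAP8. Knockdown libraries of MES were below all MES controls for these genes, while in EPI the groups overlapped. The overlap came from EPI shAKAP8 2 in PSME1 and PSME2 and from EPI shAKAP8 3 in PSME4. After knockdown in EPI, PSME1 had a log2FC of −0.42 over all libraries (limma adjusted p = 0.637). Without EPI shAKAP8 2 the EPI log2FC was −0.74 for PSME1, −0.42 for PSME2 and −0.24 for PSME4. None of these passed (limma adjusted p = 0.0551, 0.184 and 0.507). PSMB9 followed with 167 and 175 in MES shAKAP8, below its MES controls, and −0.59 (SE 0.41). PSMF1 (0.49), PSMD1 (−0.45), PSMD12 (−0.51), USP10 (0.45), USP25 (−0.63), USP30 (0.74) and USP22 (0.46) also did not pass.

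Whether the knockdown difference itself differed between the states was tested as an interaction, and 0 of 79 members passed (limma, background 0.0111% higher and 0% lower). At an unadjusted limma p under 0.05 there were 2, PSMG4 (0.79, SE 0.33) and PSMD1 (−0.43, SE 0.20), against 590 of all 9019 genes. The count stayed at 0 without EPI shAKAP8 2. For USP40, with log2FC of 0.74 in EPI (not called) and 1.02 in MES (called), the interaction of 0.29 (SE 0.28) did not pass.

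Between MES shAKAP8 and EPI shAKAP8, libraries that share none with the comparison of controls, 6 members were called. PSMC3 (0.67), USP40 (0.86) and USP13 (0.75) were higher, and PSME4 (−1.11), USP53 (−2.30) and USP43 (−1.81) were lower (limma, adjusted p from 0.000751 to 0.0246). These 6 are among the 9 called between the controls. Of all genes, 23.9% were called between the controls and 20.6% between the knockdown states, and how many were called in both was not counted. Both contrasts come from the same fit and share its spread. They are 3.80% of the members in each direction, against 10% of all genes higher and 10.6% lower. USP43 rested on 22.1 and 68.1 scaled reads in MES shAKAP8, and its log2FC was −1.02 without MES shAKAP8 1, when it was not called, and −2.59 without MES shAKAP8 2. PSMD1, called between the controls at 0.53, had 0.10 between the knockdown states (limma adjusted p = 0.675), and whether these differences differ is the interaction given above. With library totals the median log2FC of all genes was −0.20 instead of 0.02. The split of the members was then 0 higher and 8 lower (539 and 1434 of all genes, against 906 and 955). Without EPI shAKAP8 2 the split was 7 higher and 10 lower (background 16.2% and 16.5%). Without MES shAKAP8 1 the count was 3, as PSMC3 and USP40 were not called either.

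The enzymes upstream and beside the members are set against the 11.6% of all genes that were higher and the 12.3% that were lower between the controls, and the 2.06% and 2.1% after knockdown in MES. Between the controls, 1 of 27 E2 enzymes was higher (UBE2J1, 0.49) and 1 lower (UBE2T, −0.50), and 0 of 2 E1 enzymes and 0 of 2 ubiquitin precursor genes passed. Of 21 other deubiquitinases, STAMBPL1 was higher (0.96) and UCHL1 (−1.25), UCHL3 (−0.69) and TNFAIP3 (−1.72), the inhibitor of NF-kB signalling A20, were lower. Of 19 proteasome cofactors and shuttles UFD1L was higher (0.55). After knockdown in MES, UBE2Q2 was lower (−1.40), UCHL1 was higher (1.33), BRCC3 was lower (−0.97) and ADRM1, a ubiquitin receptor of the 19S cap, was higher (0.92), all by limma at an adjusted p under 0.05. After knockdown in EPI none of these lists had a call.

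AKAP8 eCLIP peaks were few in these genes. A peak was counted for a gene where its midpoint lay within the gene on the same strand. In EPI, 10 of 85 members (11.8%) had a peak against 20.1% of 11671 genes, with 21 peaks or 0.439 per 100 kb against 2.49. The share was 9 of 42 (21.4%) in USP genes and 1 of 43 (2.33%) in PSM genes. In MES, 5 of 85 (5.88%) had a peak against 14.3%, with 7 peaks or 0.146 per 100 kb against 3.02, in 3 of 42 USP genes (7.14%) and 2 of 43 PSM genes (4.65%). The families differed in gene length, with a median of 78.8 kb for USP genes and 17.2 kb for PSM genes against 38.2 kb for all genes, and the part of length in the shares was not tested. Only PSMB7 among PSM genes had a peak in EPI, and PSMB7 and PSMG4 in MES. In all, 73 members had no peak, and 3 had peaks in both states, USP12, USP2 and PSMB7. The MES peaks of USP12 and PSMB7 (log2 IP over input 1.70 and 1.88) miss the authors' cutoffs. With these cutoffs, an alternative chosen after seeing the data, 10 of 85 members had a peak in EPI (11.8%, all genes 18.4%) and 2 of 85 in MES (2.35%, all genes 11.4%), and of the 3 genes USP2 alone had one in both. Replicates were merged before deposit, so no error can be given for these counts, and whether the RNA level of a gene plays a part in them was not tested.

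USP12, which works with a WD-repeat partner on histone H2A, had 4 peaks in EPI and 1 in MES, all between chr13:27745175-27745603 on the − strand. USP32 had 4 peaks in EPI in an intron and none in MES. USP10 had 3 in EPI, PSMB7, the trypsin-like subunit of the core, had 2 in EPI and 1 in MES, and USP2, a deubiquitinase of cyclin D1, had 1 in EPI and 3 in MES. The strongest member peak in EPI lay deep in an intron of USP10 and had a log2 IP over input of 4.44. The strongest in MES lay deep in an intron of USP2, with 4.15, and overlaps a second listed peak of the same values and a peak of EPI with 3.71. Both are shown with their runs of G in capitals, since the letters AGGG or GGGA stood in the 101 bases around 21 of 21 member peaks in EPI and 6 of 7 in MES, against 96.5% and 94.4% of the peaks of all genes (peak strand only).
USP10, chr16:84747541-84747586, + strand: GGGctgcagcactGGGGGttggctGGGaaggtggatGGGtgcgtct
USP2, chr11:119233890-119234005, − strand: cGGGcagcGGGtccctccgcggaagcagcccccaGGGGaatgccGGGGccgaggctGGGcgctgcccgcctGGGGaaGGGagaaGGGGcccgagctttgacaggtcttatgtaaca

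Most member peaks of EPI lay close to an exon. In EPI, 15 of 21 lay in an intron within 500 bases of an exon and 6 deeper in an intron, against 31.2% and 57.2% of the peaks of all genes. In MES, 3 of 7 were deep in an intron, 2 near an exon and 2 in a UTR. Of the EPI member peaks 1 of 21 (4.76%) overlapped a MES peak, against 61.1% over all genes, and of the MES member peaks 2 of 7 (28.6%) overlapped an EPI peak, against 49.5%. These 28 peaks lie in 12 genes and several are neighbours, so the shares describe few places. No called member event, and none at an unadjusted p under 0.05 with a change of 10 points, had a peak of either state within 1000 bases of its variable segment or elsewhere within 1000 bases of the event. The genes of these events, USP8, USP19, USP21, USP28, USP34, USP53 and USP54, had no peak anywhere in either state. The absence near the events thus follows from the gene counts and is no separate result. The share over all events was not counted.

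**Figure D4:**
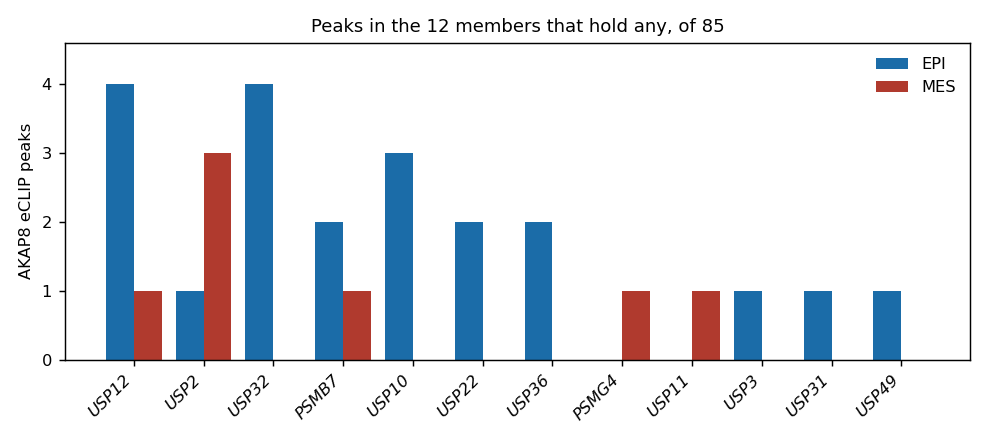
Number of AKAP8 eCLIP peaks (y axis, from 0) in the 12 members with a peak in EPI (blue) or MES (red). USP12 and USP32 have 4 peaks in EPI, and USP2 has 3 in MES.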

How the data were processed

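Poly(A) RNA-seq of HMLE/Twist-ER cells was processed by the authors with STAR 2.6.1a and rMATS. As deposited, the rMATS tables list for each event the inclusion and skipping counts of junction reads of a group, 1 value per library in 1 field, for 5 event types and 3 comparisons. Their columns of p-values, adjusted p-values and inclusion differences, 30 columns of per-library inclusion levels, and a gene table that holds only the authors' DESeq2 comparisons were not used. The eCLIP peaks were deposited by the authors with a −log10 adjusted p and a log2 IP over input per peak, with replicates merged. The column order of these peak files follows from their values and the study's methods, since they have no header. The study calls its RNA-seq libraries biological replicates.

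The members and gene lists were chosen with earlier results of these data known. Events whose libraries averaged 20 junction reads or more were tested with a quasi-binomial test with dispersions moderated by limma 3.58.1 (R 4.3.3) on the reads of both forms, and called at a Benjamini-Hochberg adjusted p under 0.05 and a change of at least 10 percentage points. PSI was corrected for the effective length of each form that rMATS gives. Gene levels were SE junction reads summed over the events present in all SE tables, scaled by median-of-ratios size factors, and tested on log2(value + 1) with limma over 11 libraries where at least 2 libraries had 10 scaled reads. A junction shared by several events counts more than once in such a sum, so levels are compared between samples and not between genes. Adjustment was over all tested events of the same type in a comparison, or over all genes tested. Both tests were checked on data simulated from the SE events and the genes of the comparison of controls, with larger changes than most called here. Smaller changes, other event types and event tests with 2 libraries a group were not simulated. Peaks were assigned to genes of a GRCh37 annotation newer than the one the authors used, in which all 85 members were found, with pandas 2.3.3 (Python 3.11.15).

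Named were every called event, the 5 member SE events with the smallest p among those changed by 10 points where fewer than 5 were called, the called genes of each family with the largest change or, where few were called, those with the smallest p, a fixed set of further members, and the members with the most peaks. Alternatives were the read minimum, the size of change, the test, the dispersion trend, the scaling, the filter, the pseudocount, the gene measure, the samples in the fit, each library left out in turn, the peak threshold and the gene limits.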

Additional observations from a re-analysis of the deposited data

How the results depend on the processing

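No paired analysis was possible because the tables list the libraries of a group in 1 field without replicate numbers, so a left-out library is named by its place in that list. Where leaving out a library left 1 in a group, it was assumed to vary like the others. Of 737 values of the called events, the called genes and AKAP8 under the alternatives, 626 kept their direction and side of the threshold, 78 lost it, 4 gained it and 29 reversed. Each event or gene was counted in every comparison it is in, also where it was not called. An uncalled value that stayed uncalled in the same direction counts as kept, and only called values could count as lost. The other named events and genes were not in this count. For the changes given here the cause was not tested. The events called between the states numbered 0 with limma on logit PSI. Members called after knockdown in MES numbered 0 with library totals (all genes 124 higher and 258 lower). They numbered 4 with only the 2 groups compared (all genes 488 higher and 458 lower). Of the members called between the controls, 3 also passed a log2FC of 1. Peaks in members fell from 28 to 4 (2 in EPI, 2 in MES) at a log2 IP over input of 4, and in MES from 7 to 4 at the authors' cutoffs, an alternative chosen after seeing the data. With each library left out, event calls ranged from 0 to 1 (EPI), 0 to 2 (MES) and 1 to 3 (between states), and gene calls from 0 to 11 (MES), 5 to 13 (between controls) and 3 to 17 (between knockdown states). They stayed at 0 in EPI and for the interaction.

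Small uncalled values reversed. Inclusion of USP21 after knockdown in MES was −1.41 points with the third MES control and −8.70 to 15.8 with a library left out, and the USP53 pair in EPI ranged from −3.76 to 3.74. With library totals, log2FC after knockdown in MES was −0.074 for PSMC5 and −0.12 for USP31 (−0.22 with its best covered event), that of AKAP8 was −0.11 between controls, and between knockdown states those of PSMD1 and AKAP8 were −0.11 and −0.20. With a library left out, log2FC in EPI ranged from −0.074 to 0.085 (PSMD1), −0.089 to 0.16 (USP31), −0.15 to 0.16 (USP43) and −0.63 to 0.037 (USP53), in MES from −0.070 to 0.17 (PSMC5), −0.13 to 0.11 (USP31) and −0.66 to 0.91 (USP43), and for AKAP8 from −0.26 to 0.22 between controls and −0.090 to 0.090 between knockdown states. Depth limits the exons of USP54 and USP18 and the 78-base exon of USP28 most, with 18 to 77 reads a library.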
